A study of Mus musculus with 6 samples.

Results

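The PRSS and TMPRSS genes encode serine proteases, most of them with the trypsin fold. Trypsin-like proteases cut after lysine or arginine through a catalytic histidine, aspartate and serine, and most are made as zymogens that another protease must cleave. PRSS proteins are secreted or held at the cell surface by a lipid or a tail anchor, and TMPRSS proteins span the membrane near their amino terminus. Many PRSS genes are known from the testis, where their products reach the acrosome or the sperm surface and act in meiosis, in sperm migration through the oviduct and in binding to the egg.

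The members were all protein-coding genes of the deposited table whose symbol begins with Prss or Tmprss followed by a digit. There were 56 of them, 39 Prss and 17 Tmprss genes, among 54532 genes in all. RNA-seq was carried out on total RNA of STRA8+ germ cells from mouse testis, with 3 control libraries labelled with the genotype Cre and 3 cKO libraries labelled Srsf1 knockout. Srsf1 encodes a splicing factor of the SR family, and Stra8 marks germ cells that have received the retinoic acid signal for differentiation and meiosis. The age and strain of the mice, the promoter of the Cre and the way in which the STRA8+ cells were obtained are not given in the sources used here, and the labels do not say whether the 3 libraries of a group came from separate animals, so that p-values measure only the spread between these samples, which may be technical.

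Levels are in FPKM, the fragments per kilobase of transcript scaled to the mapped fragments of the library, which allows levels of different genes to be compared. The libraries held 15364511 to 17310353 fragments assigned to genes in control and 14447887 to 15326722 in cKO. Srsf1 averaged 60.6 FPKM in control and 5.07 FPKM in cKO, a log2 fold change of -3.29 (SE 0.22, limma adjusted p = 5.6e-05). Stra8 lay between 222 and 313 FPKM in all 6 libraries. The summed level of 10 spermatid markers was 2579, 8486 and 2536 FPKM in control replicates 1, 2 and 3 and 8.55 to 10.6 FPKM in cKO, so control replicate 2 stood apart from the other controls and the cKO libraries held almost none of these transcripts. The summed level of 10 pachytene spermatocyte markers was 1102 to 1299 FPKM in control and 228 to 256 FPKM in cKO, and all 10 genes of each of these lists were called lower. The 10 early meiotic markers summed to 897 to 1221 FPKM in control and 899 to 1192 FPKM in cKO. Of these, 2 were called lower and 8 were not called, so the sum hides falls of single genes. In bulk samples such as these, fewer cells of a type and less RNA per cell cannot be told apart, and the part of cell composition in the changes given here was not tested.

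Of the 56 members, 25 averaged at least 1 FPKM over the 6 libraries and were tested with limma on log2(FPKM + 1) among 15451 genes in all. A log2 fold change on this scale understates the change of genes with low levels. The filter takes both groups together, so a gene could pass it through its control level alone. In each control library 25 members were at 1 FPKM or more, and in cKO replicates 1, 2 and 3 there were 14, 13 and 13. In cKO, 19 of the 25 members were called lower at an adjusted p of at most 0.05, against 22.2% of all genes tested. Another 2 members, Prss8 and Tmprss9, were called higher, against 11.8% of all genes, and the remaining 4, Prss36, Prss38, Prss42 and Prss50, were not called. The cKO libraries all lay below the control libraries for the same number of members, 19 (28.6% of all genes tested), and all above them for 2 (21.8%). The median log2 fold change was -1.645 over the 25 members and -0.01 over all genes tested. The median of the members depended on the scale and the filter: it was -2.48 with limma-voom on the fragments, and -0.07 over the 48 members that entered the test without the filter, where the median of all genes was -0.01. Without control replicate 2, 18 members were called lower and 2 higher. Prss40 then fell under the filter of 1 FPKM.

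**Figure D1:**
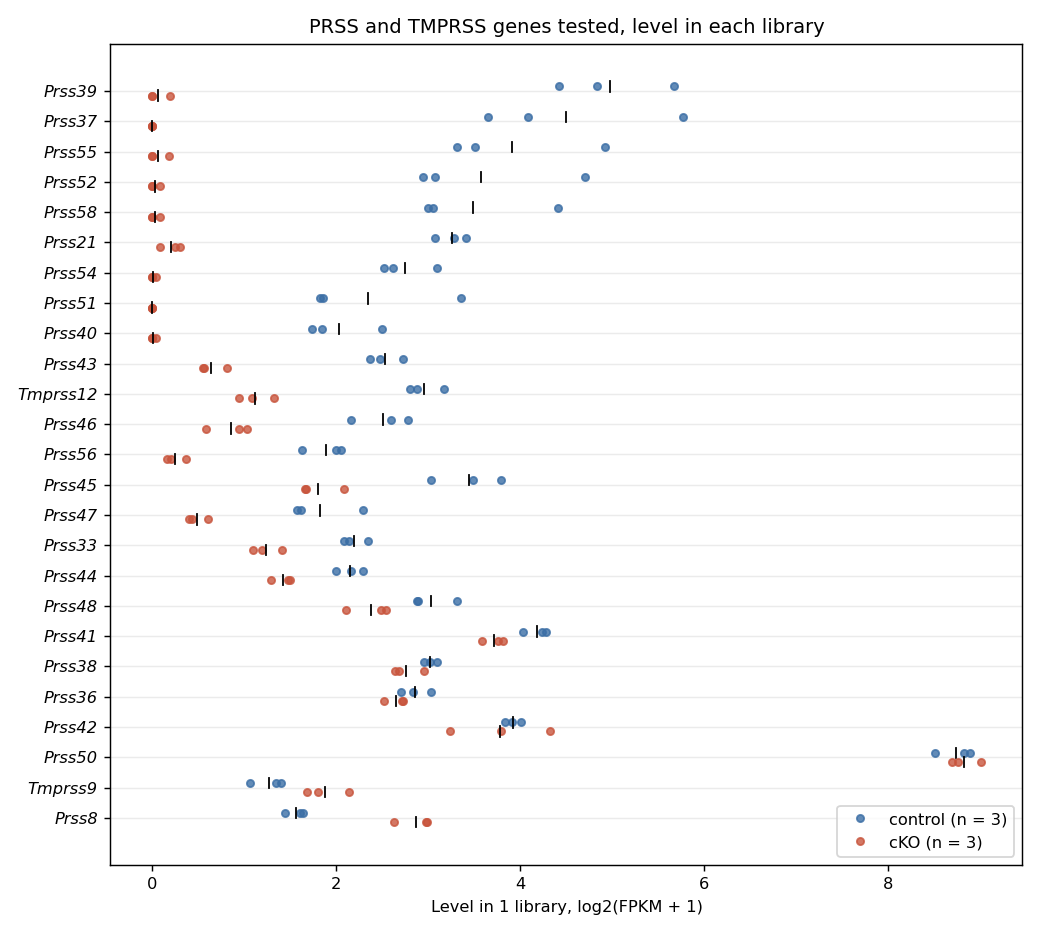
Level of the 25 members tested in each library, as log2(FPKM + 1) on the horizontal axis, with genes ordered by their change in cKO. Blue points are the 3 control libraries, red points the 3 cKO libraries, and black ticks the mean of each group. The cKO points of 9 genes from Prss39 to Prss40 sit near 0, and Prss50 stands far to the right of every other member in both groups.

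**Figure D2:**
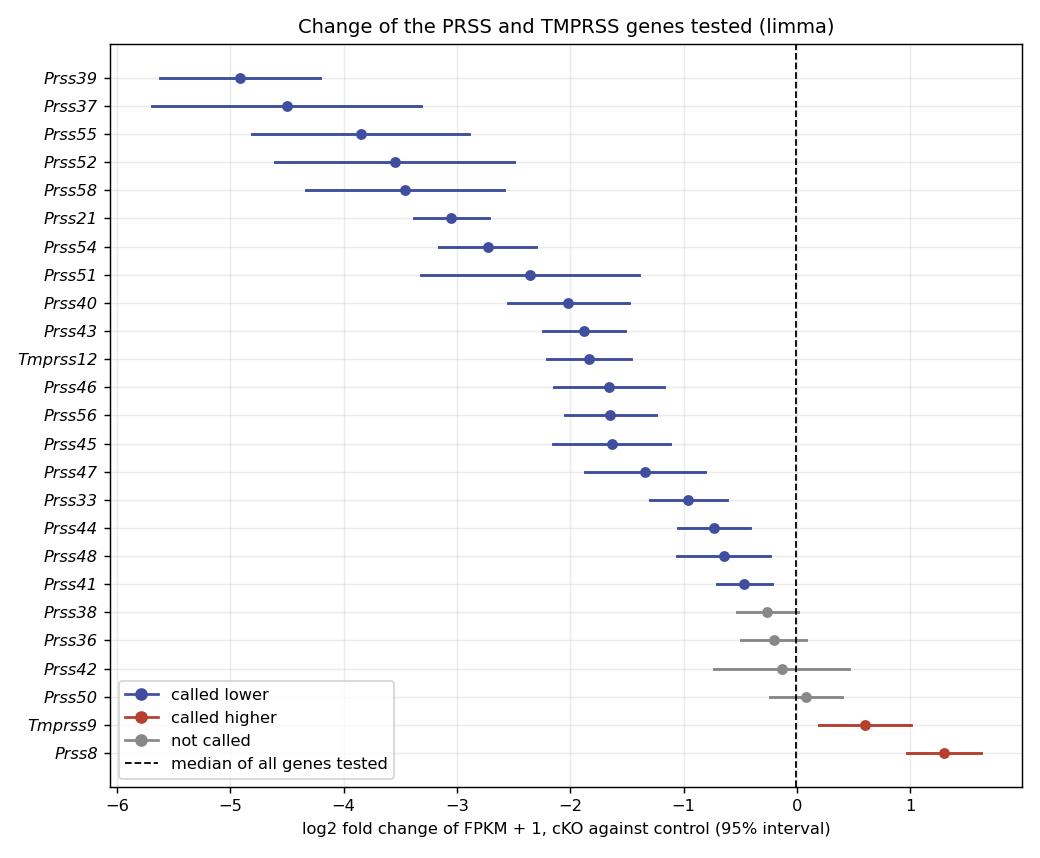
Log2 fold change of FPKM + 1 in cKO against control for the 25 members tested, with the 95% confidence interval from limma as a line. Colours give the call, and the dashed line is the median of all genes tested (-0.01). The intervals of 19 genes lie below 0, those of Prss8 and Tmprss9 above 0, and those of Prss38, Prss36, Prss42 and Prss50 include 0.

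In trypsin-fold enzymes the catalytic serine lies in a conserved motif of glycine, aspartate, serine, glycine and glycine, and its codons were searched for in frame in the longest coding transcript of each gene (GENCODE M21, mm10). They were present in 16 of the 25 members tested and in 12 of the 19 called lower. The exact motif was not matched in Prss37, Prss38, Prss43, Prss45, Prss46, Prss50, Prss51, Prss54 and Prss58. No match says only that these codons are not in that transcript. The stretches below are from genes that changed in opposite directions or to different degrees. Only genes with an exact match could be shown, so the likeness of the motif was fixed by the search. Each is 33 coding bases on the strand of the gene, with the codon of the motif's serine in capitals.
Prss39: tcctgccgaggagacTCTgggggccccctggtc
Prss55: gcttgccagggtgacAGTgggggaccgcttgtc
Prss21: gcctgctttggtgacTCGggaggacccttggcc
Tmprss12: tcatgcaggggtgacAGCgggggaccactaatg
Prss44: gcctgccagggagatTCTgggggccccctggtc
Prss42: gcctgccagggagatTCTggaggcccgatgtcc
Prss8: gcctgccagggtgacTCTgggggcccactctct
This serine is codon 263 of 367 in Prss39, 216 of 321 in Prss55, 248 of 324 in Prss21, 256 of 336 in Tmprss12, 297 of 372 in Prss44, 267 of 335 in Prss42 and 238 of 339 in Prss8. Tmprss9, also known as polyserase-1 for its several protease domains, held 2 matches in its 1099 codons.

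Among the members, 6 lie side by side on the forward strand of chromosome 9 within 66.5 kb (mm10 chr9:110798166-110864629), in the order Prss42, Prss44, Prss43, Prss45, Prss46 and Prss50. The first 5 are known as testis-specific serine proteases, and Prss50, or TSP50, is a testis protease that has threonine in place of the catalytic serine. All 6 averaged above 1 FPKM over the 6 libraries, and they differed in their response, with a median log2 fold change of -1.18. Of these, 4 were called lower, against 22.2% of all genes tested, and 2 were not called. The genes at the ends of the cluster, Prss42 and Prss50, were those not called.

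Prss50 was by far the most abundant member. Its level was 452, 363 and 475 FPKM in control and 433, 515 and 414 FPKM in cKO replicates 1, 2 and 3. The groups overlapped, with a log2 fold change of 0.08 (SE 0.13, 95% CI -0.24 to 0.40, adjusted p = 0.67). Prss50 alone made up 54.4% to 73.2% of the summed FPKM of all members in control and 87.2% to 88.1% in cKO. The interval leaves room for a change of either sign, and the sign turned to -0.03 without control replicate 2 and to -0.01 without cKO replicate 2.

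Prss42, which has been linked to the progress of spermatocytes through meiosis, was at 13.3, 14.1 and 15.1 FPKM in control and 8.48, 19.1 and 12.8 FPKM in cKO. Its control libraries lay close together and its cKO libraries on both sides of them. The log2 fold change was -0.14 (SE 0.25, 95% CI -0.73 to 0.46, adjusted p = 0.71), and it was 0.14 without cKO replicate 1.

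The 4 genes between them fell to different degrees. Prss43 fell furthest, from 5.64, 4.18 and 4.60 FPKM in control to 0.766, 0.470 and 0.481 FPKM in cKO (log2 fold change -1.88, SE 0.15, adjusted p = 0.00014). Prss46 was at 3.47, 5.86 and 5.07 FPKM in control and 1.04, 0.507 and 0.929 FPKM in cKO (log2 fold change -1.66, SE 0.20, adjusted p = 0.001). No cKO library of either gene reached the lowest control library. Prss45 fell from 12.9, 10.2 and 7.21 FPKM to 2.16, 3.26 and 2.18 FPKM (log2 fold change -1.63, SE 0.22, adjusted p = 0.0014), and 25.1% of its mean control level was left. Prss44 kept 48.7%, with 3.92, 3.47 and 3.01 FPKM in control and 1.46, 1.78 and 1.83 FPKM in cKO (log2 fold change -0.73, SE 0.13, adjusted p = 0.0058). Both genes separated the groups fully, and Prss45 varied more among the control libraries than Prss44 did.

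**Figure D3:**
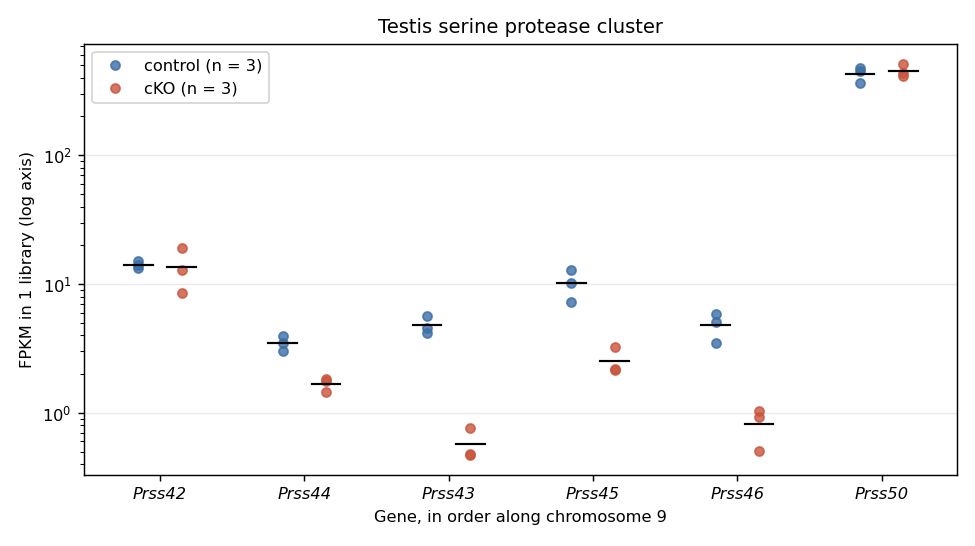
Level in FPKM, on a log axis, of the 6 genes of the chromosome 9 cluster in their order along the chromosome. Each point is 1 library, blue for control and red for cKO (n = 3 each), and black lines are group means. Prss42 and Prss50 overlap between the groups, while the cKO libraries of Prss44, Prss43, Prss45 and Prss46 all lie below control.

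The promoters of this cluster are shown because neighbouring genes differed in their response. Each line gives the 150 bases before the RefSeq start (GRCm38.p6, the forward strand), and RefSeq entries for Prss43 and Prss44 were not used here. Capitals mark matches to motifs that were searched on both strands in the 250 bases before each start: the core site of MYB factors (AACGG), the GC box bound by Sp factors (GGGCGG) and the half-site of RFX factors (GTTGCC), each printed as its complement where it lay on the other strand. None of these motifs overlaps another in the windows shown. The windows lie at chr9:110798035-110798184 for Prss42, chr9:110834438-110834587 for Prss45, chr9:110844356-110844505 for Prss46 and chr9:110857814-110857963 for Prss50, the first of 2 starts that RefSeq gives for it.
Prss42, not called: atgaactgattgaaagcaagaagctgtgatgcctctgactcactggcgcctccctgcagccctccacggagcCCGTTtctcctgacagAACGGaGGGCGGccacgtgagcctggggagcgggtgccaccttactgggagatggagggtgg
Prss45, lower: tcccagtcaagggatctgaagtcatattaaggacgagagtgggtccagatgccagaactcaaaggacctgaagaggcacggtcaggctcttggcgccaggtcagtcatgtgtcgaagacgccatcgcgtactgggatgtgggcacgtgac
Prss46, lower: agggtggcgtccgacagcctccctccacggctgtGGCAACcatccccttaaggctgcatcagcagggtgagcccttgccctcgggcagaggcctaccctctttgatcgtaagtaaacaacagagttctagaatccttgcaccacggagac
Prss50, not called: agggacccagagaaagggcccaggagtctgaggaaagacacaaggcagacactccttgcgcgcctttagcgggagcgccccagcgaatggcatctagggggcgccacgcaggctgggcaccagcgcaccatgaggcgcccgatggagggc
Prss42 held 2 MYB cores, 78 and 62 bases before its start, and a GC box at 56 bases. Prss46 held 1 RFX half-site, 116 bases before its start, and the windows shown for Prss45 and Prss50 held no match to these motifs.

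Over all members, 18 of the 25 tested had a RefSeq promoter, 13 of them called lower. The MYB core was found in 6 of the 18 (Prss21, Prss37, Prss41, Prss42, Prss47 and Prss56) and in 14.5% of all 32851 promoters of the same length. The RFX half-site was found in Prss21, Prss46 and Prss47 and in 10.4% of all promoters. The GC box was found in Prss42 and Prss47 against 32.7%, and the cyclic AMP response half-site TGACG in Prss38 and Tmprss12 against 17.8%. Neither the full response element TGACGTCA, which holds that half-site and is present in 1.55% of all promoters, nor the TATA box TATAAA (12.4%) was found in any of the 18. These matches are descriptions of letters and not of binding.

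Outside the cluster, 12 members are known as proteases or protease-like proteins of testis or sperm, and all 12 were tested. Of these, 11 were called lower, against 22.2% of all genes tested, and 1, Prss38, was not called. Their median log2 fold change was -2.89. They included the 9 largest falls of all members.

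Prss39 and Prss40, also named TESP1 and TESP2, are proteases of the sperm acrosome and lie within 62.5 kb of each other on chromosome 1 (chr1:34498410-34560943). Prss39 was at 27.7, 50.02 and 20.5 FPKM in control and at 0.143, 0 and 0 FPKM in cKO. Its pooled control level was 650.1 times that in cKO (95% counting interval 222 to 3155), with only 3 fragments left over the cKO group, and the log2 fold change was -4.92 (SE 0.30, adjusted p = 3.8e-05). This was the largest fall among the members on the log2(FPKM + 1) scale, which depends on the control level. With limma-voom on the fragments Prss37 fell further, with a log2 fold change of -9.44 against -9.26 for Prss39. Prss40 was at 2.34, 4.68 and 2.61 FPKM in control and 0.0302, 0 and 0 FPKM in cKO, with 1 fragment left (log2 fold change -2.02, SE 0.22, adjusted p = 0.00061). Of the exonic bases of Prss40, 13.7% overlap those of Cfc1 on the opposite strand, and whether the counting used strand is not given in the sources used here. Intervals of ratios and lower bounds given here cover counting error only.

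The promoters of this pair are shown because the genes read towards each other and share sequence before their starts. Each line holds the 150 bases before the RefSeq start on the strand of the gene (GRCm38.p6, chr1:34498262-34498411 forward for Prss39 and chr1:34560944-34561093 reverse for Prss40), with the longest run that both hold, of 19 bases, in capitals.
Prss39, lower: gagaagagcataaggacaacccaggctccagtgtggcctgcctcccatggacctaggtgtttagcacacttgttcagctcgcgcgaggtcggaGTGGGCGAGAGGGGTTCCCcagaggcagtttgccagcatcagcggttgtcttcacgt
Prss40, lower: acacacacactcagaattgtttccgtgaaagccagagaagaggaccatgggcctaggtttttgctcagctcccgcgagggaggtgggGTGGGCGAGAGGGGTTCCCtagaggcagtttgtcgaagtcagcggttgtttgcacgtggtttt
The shared run began 57 bases before the start of Prss39 and 63 bases before that of Prss40. Neither promoter held any of the motifs searched.

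Prss37 and Prss55 are each required in males for normal maturation of the sperm surface protein ADAM3 and for passage of sperm into the oviduct. Prss37 (chr6:40514824-40519508) was at 11.6, 53.5 and 16.1 FPKM in control and was not detected in any cKO library, so that it was at least 448-fold lower against a floor of 3 fragments over the group (log2 fold change -4.50, SE 0.50, adjusted p = 0.00061). Prss55 was at 10.4, 29.3 and 8.94 FPKM in control and 0, 0 and 0.141 FPKM in cKO, with 3 fragments left and a ratio of 336 (95% counting interval 115 to 1633). Its log2 fold change was -3.85 (SE 0.40, adjusted p = 0.00045). For both genes control replicate 2 lay far above the other control libraries, and without it the log2 fold changes were -3.87 and -3.35, with adjusted p-values of 2.27e-05 and 2.2e-05. The lower bound for Prss37 was then 237-fold and the ratio for Prss55 was 205 (95% counting interval 69.9 to 1000.1).

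Prss55 lies with Prss51 and Prss52 in 38.3 kb on chromosome 14 (chr14:64075438-64113755), and all 3 fell together. Prss52 was at 6.73, 25.1 and 7.44 FPKM in control and 0, 0.0642 and 0 FPKM in cKO, with 1 fragment left (log2 fold change -3.55, SE 0.44, adjusted p = 0.0011). Prss51 was at 2.64, 9.28 and 2.56 FPKM in control and was not detected in cKO, which made it at least 88.5-fold lower, or at least 49.0-fold without control replicate 2 (log2 fold change -2.35, SE 0.41, adjusted p = 0.0048). The gene bodies of Prss51 and Prss55 overlap on opposite strands but their exons do not. Control replicate 2 was the highest library for all 3 genes, at 3.03 to 3.58 times the mean of the other controls.

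Prss58 (chr6:40895270-40900387), a trypsin-like gene near Prss37, was at 7.32, 20.3 and 7.03 FPKM in control and 0.0650, 0 and 0 FPKM in cKO (log2 fold change -3.46, SE 0.37, adjusted p = 0.00049). Prss54, a protease-like gene of testis on another chromosome, was at 4.75, 7.56 and 5.13 FPKM in control and 0, 0 and 0.0330 FPKM in cKO (log2 fold change -2.73, SE 0.18, adjusted p = 5.8e-05). Only 1 fragment of each was left over the cKO group, giving ratios of 502 (95% counting interval 89.7 to 19863) and 523 (93.5 to 20706). Without control replicate 2 these were 319.7 (56.8 to 12680.3) and 449 (80.1 to 17795).

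Prss21, or testisin, is a lipid-anchored protease of the sperm surface (chr17:23868056-23873114). It was at 7.44, 9.66 and 8.77 FPKM in control and 0.233, 0.187 and 0.0601 FPKM in cKO. The control libraries lay close together, the cKO libraries kept 1.86% of their mean, and the log2 fold change of -3.05 had the smallest adjusted p of the members (SE 0.14, adjusted p = 1.1e-05).

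Tmprss12, a transmembrane protease that sperm need to enter the oviduct (chr15:100280837-100293066), was called lower and was 1 of the 2 TMPRSS members tested. It was at 8.06, 6.38 and 5.98 FPKM in control and 0.934, 1.504 and 1.13 FPKM in cKO (log2 fold change -1.83, SE 0.16, adjusted p = 0.00017). It was still detected in every cKO library, with 17.5% of the mean control level left.

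Prss41 and Prss38 changed least of these 12. Prss41, named TESSP1 and lipid-anchored in testis (chr17:23836785-23844172), was at 17.9, 15.4 and 18.5 FPKM in control and 11.0, 13.1 and 12.6 FPKM in cKO. The groups did not overlap and 70.9% of the mean control level was left (log2 fold change -0.46, SE 0.10, adjusted p = 0.014). The call was lost without control replicate 1 (adjusted p = 0.0504) or without control replicate 3 (adjusted p = 0.0526), and with quantile normalisation (adjusted p = 0.054). Prss38 (chr11:59372669-59375657) was at 6.74, 7.14 and 7.53 FPKM in control and 5.43, 6.76 and 5.24 FPKM in cKO, and the groups overlapped by cKO replicate 2 alone. Its log2 fold change was -0.26 (SE 0.11, 95% CI -0.53 to 0.01, adjusted p = 0.12), and without that library it was -0.36 (adjusted p = 0.0481). Of the exonic bases of Prss38, 13.1% overlap an antisense gene, Gm15755.

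The 19 members called lower thus differed widely in what was left. In 8 of them, Prss37, Prss39, Prss40, Prss51, Prss52, Prss54, Prss55 and Prss58, less than 1% of the mean control level remained and at most 3 fragments were counted over the cKO group, with 2 of them, Prss37 and Prss51, at 0. In 6 members, Prss21, Prss43, Prss46, Prss47, Prss56 and Tmprss12, 1% to 25% remained, and in 5, Prss33, Prss41, Prss44, Prss45 and Prss48, 25% or more. These limits were chosen after the values were seen.

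The control libraries also differed in these genes. In control replicate 2, the level of those 8 members was 1.53 times (Prss54) to 3.87 times (Prss37) the mean of control replicates 1 and 3. No other member tested reached 1.5 times, a limit that was not set in advance. The summed spermatid markers were 3.32 times as high in control replicate 2 as in the mean of the other controls, the summed pachytene markers 1.10 times and the summed early meiotic markers 0.767 times. The 6 Leydig cell markers also summed to 3.33 times as much there, at 13.98 FPKM against 5.45 and 2.95 FPKM. Of these, 4 were under 1 FPKM in every library. Most of the sum there was Insl3, at 9.74 FPKM against 2.14 and 0 FPKM, while Star was at 2.76 FPKM against 2.57 and 2.77 FPKM. The part of spermatids or other cells in the levels of the 8 members was not tested. Without control replicate 2, the 7 of them that still passed the filter had log2 fold changes of -4.57 (Prss39) to -1.85 (Prss51), each with an adjusted p of 0.000164 or lower. Among the other 11 members called lower, the level in control replicate 2 was 0.664 times (Prss47) to 1.37 times (Prss46) the mean of the other controls.

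**Figure D4:**
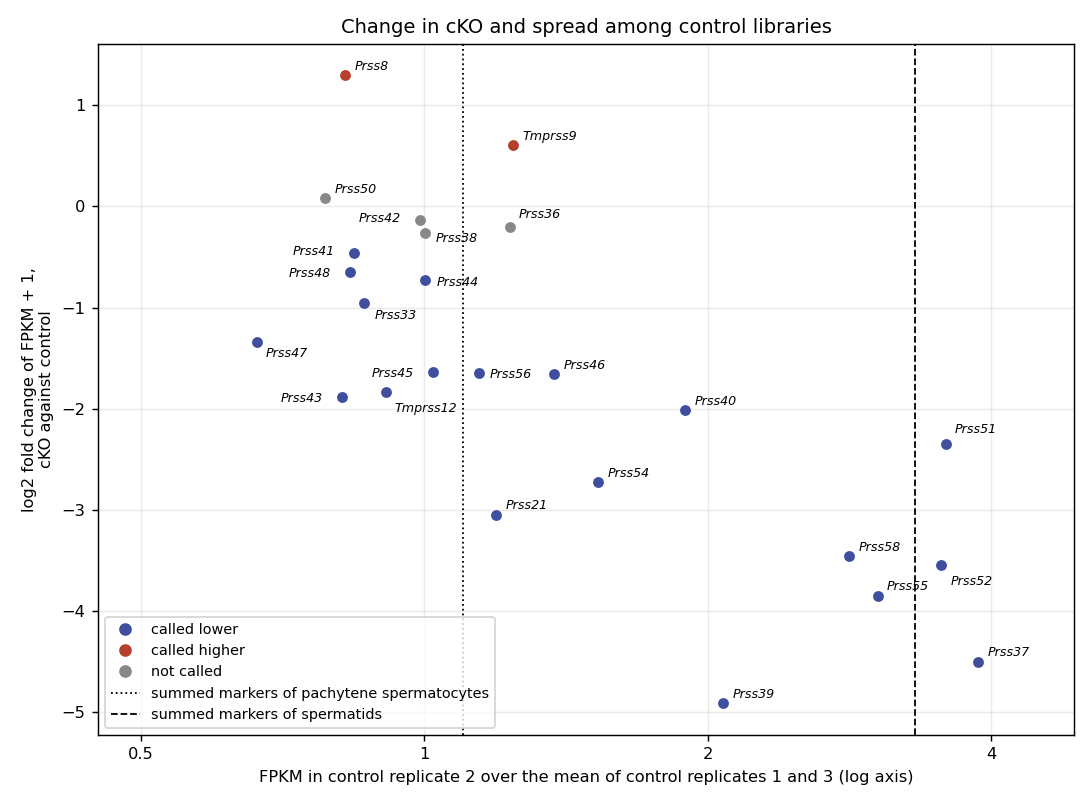
Log2 fold change of FPKM + 1 in cKO on the vertical axis against the FPKM in control replicate 2 divided by the mean of control replicates 1 and 3 on the horizontal log axis, for the 25 members tested. Vertical lines give the same ratio for the summed markers of pachytene spermatocytes (1.10, dotted) and of spermatids (3.32, dashed). The 8 genes to the right of 1.5 were all called lower, and both axes use the same control libraries.

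The remaining members are known from other tissues. Of 10 other secreted or anchored PRSS genes, 5 were tested. Of these, 3 were called lower and 1 higher, against 22.2% and 11.8% of all genes tested, and 1 was not called. Prss56, known for its part in eye growth (chr1:87183313-87188405), fell from 3.15, 2.99 and 2.09 FPKM to 0.292, 0.157 and 0.121 FPKM (log2 fold change -1.65, SE 0.17, adjusted p = 0.00043). Prss47 (chr13:65044606-65052760) fell from 3.90, 1.98 and 2.07 FPKM to 0.531, 0.325 and 0.353 FPKM (log2 fold change -1.34, SE 0.22, adjusted p = 0.004). Every cKO library of both genes lay well under every control library, with 6.91% and 15.2% of the mean control level left. Prss48 (chr3:85993810-86002491) was at 8.96, 6.39 and 6.40 FPKM in control and 4.63, 4.82 and 3.33 FPKM in cKO (log2 fold change -0.65, SE 0.17, adjusted p = 0.026). This call was lost without control replicate 1 (adjusted p = 0.0733), cKO replicate 1 (0.0519) or cKO replicate 3 (0.0798), without the filter on low levels (0.0523) and with quantile normalisation (0.126).

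Prss8 and Prss36 are neighbours on chromosome 7, within 60.9 kb that also hold Prss53 (chr7:127885841-127946725). Prss8, or prostasin, is a lipid-anchored protease of epithelia that activates the epithelial sodium channel. It was at 2.13, 1.73 and 2.06 FPKM in control and 5.19, 6.93 and 6.89 FPKM in cKO, and the lowest cKO library held more than any control library (log2 fold change 1.30, SE 0.14, adjusted p = 0.00049). Of its exonic bases, 6.59% overlap those of Kat8 on the opposite strand. Prss36, or polyserase-2, was at 5.54, 7.21 and 6.16 FPKM in control and 5.65, 4.73 and 5.58 FPKM in cKO, with overlapping groups (log2 fold change -0.21, SE 0.12, 95% CI -0.49 to 0.08, adjusted p = 0.24).

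Prss53 lay between 0.122 and 0.358 FPKM and did not pass the filter.

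Tmprss9, of the matriptase subfamily (chr10:80871848-80899492), was the other member called higher. It was at 1.10, 1.64 and 1.55 FPKM in control and 3.41, 2.49 and 2.23 FPKM in cKO (log2 fold change 0.60, SE 0.17, adjusted p = 0.033). The groups did not overlap, but the call was lost without control replicate 1 (adjusted p = 0.0979), control replicate 3 (0.0699), cKO replicate 1 (0.0923) or cKO replicate 2 (0.0673) and without the filter (0.0668). Markers of other cells were summed beside Prss8 and Tmprss9. Those of 8 Sertoli genes were 78.3 to 115 FPKM in control and 63.9 to 157 FPKM in cKO, those of 5 peritubular genes 3.69 to 6.44 and 7.04 to 8.16 FPKM, and those of 7 pancreas and gut epithelium genes 69.1 to 90.9 and 84.2 to 102 FPKM, of which 5 were under 1 FPKM in every library. Nearly all of this last sum was Epcam, and the only other gene above 1 FPKM, Krt8, was at 1.15, 1.67 and 1.004 FPKM in control and 0.683, 0.488 and 0.202 FPKM in cKO. The part of these cells in the higher levels was not tested.

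Of 9 tryptase-like and blood or uterine proteases, only Prss33, a tryptase of eosinophils and macrophages, passed the filter. It was at 3.43, 3.25 and 4.11 FPKM in control and 1.67, 1.15 and 1.29 FPKM in cKO (log2 fold change -0.96, SE 0.14, adjusted p = 0.0024), and 38.1% of its mean control level was left. The 7 macrophage and blood markers summed to 5.12 to 8.70 FPKM in control and 5.45 to 6.64 FPKM in cKO, and all 6 mast cell markers were under 1 FPKM in every library. Prss33 begins a group of 7 members in 213 kb of chromosome 17 (chr17:23833347-24045954) that also holds Prss41 and Prss21. The other 4 of that group, Prss32, Prss30, Prss22 and Prss27, did not pass the filter, and the 3 tested kept 38.1%, 70.9% and 1.86% of their control levels.

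The 31 members under 1 FPKM on average did not pass the filter, and 28 of them were below 0.5 FPKM in every library. Prss16, a thymus protease of another fold that helps to make peptides for helper T cells, was at 0.435, 0.390 and 0.553 FPKM in control and 1.67, 1.06 and 1.195 FPKM in cKO. Prss35, a trypsin-like protein, was at 0.264, 0.341 and 0.235 FPKM in control and 1.07, 0.595 and 0.535 FPKM in cKO. In both genes every cKO library lay above every control library. Without the filter on low levels, the log2 fold change was 0.66 for Prss16 (adjusted p = 0.038) and 0.43 for Prss35 (adjusted p = 0.11), so that Prss16 was then called higher. Tmprss6, or matriptase-2, which lowers hepcidin in the liver, was at 0.145, 0.699 and 0.430 FPKM in control and 0.682, 0.529 and 0.392 FPKM in cKO, with overlapping groups.

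The digestive and airway members were at or near 0. The trypsins Prss1, Prss2 and Prss3 had no fragment in any library, and enteropeptidase, Tmprss15, which activates trypsinogen, reached 0.0468 FPKM in 1 library. None of the 5 genes of the hepsin/TMPRSS subfamily exceeded 0.298 FPKM, and Tmprss2, which primes viral spike proteins in airway cells, lay between 0.0333 and 0.0893 FPKM. None of the 7 Tmprss11 genes, which lie in 1 group on chromosome 5 (chr5:86231481-86745815), exceeded 0.0745 FPKM. In all, 8 members had no fragment in any library.

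Genes that work with the testis proteases were compared in the same fit. Of 20 genes for the maturation of ADAM proteins on the sperm surface, 19 were tested, with a median log2 fold change of -2.29. Of these, 14 were called lower and none higher, against 22.2% and 11.8% of all genes tested. The largest falls were those of the sperm surface proteins Adam5 (log2 fold change -5.88, adjusted p = 9.1e-07) and Adam3 (-5.84, adjusted p = 1.1e-06) and of Cmtm2b (-5.79, adjusted p = 4.7e-07) and Cmtm2a (-4.86, adjusted p = 4.4e-06), which are needed for ADAM3 on sperm. Adam3, whose product needs Prss37 and Prss55 to mature, was at 53.9, 68.6 and 49.6 FPKM in control and 0, 0 and 0.0224 FPKM in cKO. The 5 genes that were not called, Tex101, Ly6k, Hspa5, Calr and Tpst2, overlapped between the groups, and the first 4 of them were above 100 FPKM in every library. Adam2 is also among the pachytene markers.

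Of 30 genes listed as other trypsin-fold serine proteases, 6 were tested, with a median log2 fold change of -0.03. Of these, 2 were called lower and 2 higher, against 22.2% and 11.8% of all genes tested. Acr, or acrosin, the main protease of the acrosome, fell from 23.0, 22.9 and 20.99 FPKM to 0.284, 0.0872 and 0.0420 FPKM (log2 fold change -4.36, adjusted p = 1.9e-06). The other gene called lower was Reln (-0.44, adjusted p = 0.019), an extracellular matrix protein that has no trypsin fold. Klk8, a kallikrein (log2 fold change 0.77, adjusted p = 0.0072), and Ctrl, a chymotrypsin-like protease of the pancreas (0.68, adjusted p = 0.023), were called higher.

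Of 19 protease inhibitors and binding proteins, 12 were tested, with a median log2 fold change of 0.12. Of these, 3 were called lower, close to the share of 22.2% of all genes tested. Spink2, which restrains acrosin in the acrosome, fell from 80.3, 83.1 and 73.7 FPKM to 0.888, 1.04 and 1.34 FPKM (log2 fold change -5.26, adjusted p = 9.1e-07). Acrbp, which binds the acrosin zymogen, was also lower (log2 fold change -2.53, adjusted p = 4.3e-05), as was Serpinb6a (-0.98, adjusted p = 0.0013). Unlike the 8 members with less than 1% left, Acr and Spink2 had similar levels in all 3 control libraries. Spint1 and Spint2, which inhibit prostasin and matriptase at the cell surface, were not called, with log2 fold changes of 0.26 (95% CI -0.10 to 0.61) and 0.14 (95% CI -0.07 to 0.36).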

How the data were processed

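RNA-seq of STRA8+ germ cells from mouse testis was analysed in 3 control and 3 cKO libraries. Per the labels, reads were aligned with HISAT2 2.0.5 to mm10. The counting tool, annotation and sequencing depth are not given in the sources used here. The authors deposited 1 table of FPKM per gene. Multiplied by gene length, these values gave whole fragments for 100% of entries (tolerance 0.01), and the sums are the depths given.

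Only genes that averaged 1 FPKM or more entered the test, on log2(FPKM + 1), with limma 3.58.1 in R 4.3.3 (lmFit, eBayes with trend), with group as the only term. P-values were adjusted by Benjamini-Hochberg over all 15451 genes, with a threshold of 0.05. All tests were two-sided. Scripts were tested on simulated data. Every member tested and Srsf1 were named, members under the filter where any library reached 0.5 FPKM or the role is well known, and up to 4 called genes of each other list. Ratios and lower bounds without control replicate 2 were added after seeing the data. Some genes outside this rule were named after their values were seen. These were Stra8, Epcam, Krt8, Adam2, Insl3, Star, Prss23, Prss23os, Prss53, Prss32, Prss30, Prss22, Prss27, Tex101, Ly6k, Hspa5, Calr, Tpst2, Spint1 and Spint2. The members and lists were chosen with earlier results of these data known. Of the 56 members, 51 had the coordinates of GENCODE M21, and 41 had a RefSeq promoter. Prss59 and Tmprss11bnl, listed by name, were not analysed here. The alternatives were pseudocount, filter, scaling, trend, a fold limit, a replicate block, limma-voom on the fragments and each library left out. Python 3.11.15 was used for summaries. The result of 1 gene of the inhibitor list is not reported here.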

Additional observations from a re-analysis of the deposited data

How the results depend on the processing

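Of 336 values of single members under the alternatives other than the fold limit, 315 kept their direction and call, 14 lost the call, 1 gained it and 6 turned sign, all 6 among genes not called. Of 21 called members, 18 kept direction and call in each of these that they could be run in, and the exceptions were Prss41, Prss48 and Tmprss9. Members called lower numbered 17 to 20 and members called higher 1 to 2 with 1 library left out. All genes called lower then ranged from 2763 to 3202 and all genes called higher from 965 to 1752. With a mean of at least 5 FPKM, 8 members were called lower and 0 higher (12 members tested), and of 8929 genes in all 1950 were lower and 1283 higher. With an absolute log2 fold change of at least 1, 15 members were lower and 1 higher, since Prss33, Prss41, Prss44, Prss48 and Tmprss9 lie under that limit, and 1939 of all genes were lower and 177 higher. The replicate block left 1 member higher (Tmprss9 lost its call, adjusted p = 0.0979) and 891 of all genes higher. Deviations of same-numbered libraries had correlations of 0.00, -0.11 and 0.02, and those of differently numbered libraries lay between -0.15 and 0.13. These values cannot decide whether same-numbered libraries were paired, and the labels do not say. Quantile normalisation called 5164 of all genes higher and shifted their median change from -0.01 to 0.21, and it turned the sign of Prss42 (0.0296), Prss38 (0.000917) and Prss36 (0.0737). With 1 library left out, the value of Prss42 ranged from -0.406 to 0.136 and that of Prss50 from -0.035 to 0.157, and both changed sign. The causes were not tested. limma-voom on the fragments called 19 members lower and 2 higher, and 3334 and 2482 of all genes. Without the filter, 48 members were tested, with 18 lower and 2 higher, Prss8 and Prss16, as Tmprss9 lost its call, and of 35994 genes in all 4361 were lower and 1574 higher.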

Other observations

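The antisense gene Prss23os, which carries a protease's name but codes for no protein, was at 0.381, 0.820 and 0.327 FPKM in control replicates 1, 2 and 3 and was listed at 0 FPKM in all 3 cKO libraries. Control replicate 2 was again the highest. Prss23, in which it lies on the opposite strand, was between 0.0460 and 0.242 FPKM in all 6 libraries. Whether the counting used strand is not given in the sources used here, and overlap between the exons of this pair was not examined.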
